A study of Mus musculus with 6 samples.

Results

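The genes that write and erase N6-methyladenosine (m6A), a methyl mark on adenosines inside messenger RNA, were followed in m6A immunoprecipitation (IP) libraries of fetal mouse hearts. The 10 members are the writers Mettl3, Mettl14, Wtap, Virma, Zc3h13, Rbm15, Rbm15b and Cbll1 (8 genes) and the erasers Fto and Alkbh5 (2 genes). The rule that chose them from 48505 genes used names and Ensembl IDs. Their rows make up 2760 of 5193362 windows, where a window is a row named by a gene and a start position, mostly 25 nucleotides from the next. In the IP, RNA fragments bound by an anti-m6A antibody were pulled down and sequenced, so the IP level of a gene depends on how much of its RNA was present and on how much of that RNA the antibody bound.

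All hearts came from wild-type FVB/NJ fetuses and were collected on gestational day 15. The dams, 10 weeks old, breathed filtered air (sham, 3 libraries) or air carrying a fine aerosol of titanium dioxide particles of nanometre size (nano-TiO2, 3 libraries) in a whole-body chamber. The target concentration was 12 mg/m3 for 360 minutes a day, on 6 days within a span of 8 days that began on gestational day 5. Each library was made from a pool of fetal hearts of both sexes. The labels do not say which litters went into which pool, so p-values measure only the spread between these 6 samples. Values of single libraries are given in the order of replicates 1, 2 and 3. No table used here pairs heart marker genes with the IDs in the files, so the labelled tissue was not checked against its markers.

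m6A is deposited while RNA is being transcribed by a heterodimer of METTL3, which carries the catalytic activity, and METTL14, which binds the RNA and holds METTL3 in an active fold. A set of partner proteins around WTAP (VIRMA, ZC3H13, CBLL1, RBM15 and RBM15B) guides the heterodimer to nuclear speckles and to its sites. FTO and ALKBH5 are dioxygenases that remove the methyl group. In the heart the balance of writing and erasing is known to bear on cardiomyocyte growth and contractility. Transcripts of several of these enzymes carry m6A themselves and can be pulled down by the antibody.

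The promoters of 4 members whose IP level rose with the deposited scaling are shown first. The RefSeq promoter table (GRCm38.p6, 250 bases before to 50 bases after a gene start) had an entry for 8 of the 10 members. Wtap had 3 entries and Zc3h13 had 2, and only the first of each was used. Sequences run 5′ to 3′ on the strand of the gene, and capitals mark each GGGCGG (a GC box) or CCAAT on either strand, so the reverse complements CCGCCC and ATTGG are also in capitals. Overlapping matches were counted each.
Zc3h13, chr14:75284116-75284415, plus strand: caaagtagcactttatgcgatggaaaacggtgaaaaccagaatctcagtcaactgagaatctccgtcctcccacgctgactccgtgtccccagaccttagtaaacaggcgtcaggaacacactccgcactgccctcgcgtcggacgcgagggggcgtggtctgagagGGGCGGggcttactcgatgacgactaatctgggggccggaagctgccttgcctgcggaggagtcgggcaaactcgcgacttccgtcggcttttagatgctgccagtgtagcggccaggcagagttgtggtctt
Rbm15, chr3:107333240-107333539, minus strand: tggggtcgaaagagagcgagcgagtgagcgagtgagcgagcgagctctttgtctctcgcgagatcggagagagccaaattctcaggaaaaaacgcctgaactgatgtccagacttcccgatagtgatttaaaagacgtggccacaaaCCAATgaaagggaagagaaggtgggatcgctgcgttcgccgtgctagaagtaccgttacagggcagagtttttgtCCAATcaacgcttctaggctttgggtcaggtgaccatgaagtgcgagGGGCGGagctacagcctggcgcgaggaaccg
Cbll1, chr12:31499567-31499866, minus strand: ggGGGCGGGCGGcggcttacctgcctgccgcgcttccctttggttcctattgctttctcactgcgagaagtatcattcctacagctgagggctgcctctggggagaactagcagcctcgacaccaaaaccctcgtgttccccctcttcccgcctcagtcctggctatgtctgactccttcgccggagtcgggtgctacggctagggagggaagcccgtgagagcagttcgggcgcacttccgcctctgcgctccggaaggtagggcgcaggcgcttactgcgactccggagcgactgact
Alkbh5, chr11:60537433-60537732, plus strand: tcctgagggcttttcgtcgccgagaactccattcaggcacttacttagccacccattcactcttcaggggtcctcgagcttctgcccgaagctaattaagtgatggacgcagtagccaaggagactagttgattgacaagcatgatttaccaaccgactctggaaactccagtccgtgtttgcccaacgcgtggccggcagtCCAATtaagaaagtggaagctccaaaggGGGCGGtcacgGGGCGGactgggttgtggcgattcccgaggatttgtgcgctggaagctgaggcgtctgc

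A GGGCGG was found in 6 of the 8 member promoters used, against 35.66% of all 32851 promoters of 300 bases, where every entry of a gene counts. CCAAT was found in 3 of 8, against 37.41% of all. The TATA motif TATAAA was found in 0 of 8, against 13.62% of all. These are matches of letters, described only. Promoters of members that did not rise hold the same letters: the Rbm15b promoter has 3 GGGCGG and the Wtap promoter has 3, while those of Mettl3 and Fto have 0.

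The libraries held 20205024 to 31523675 reads, and the ranges of the groups overlapped. Reads fell on 997523 to 1145132 windows in sham and on 1271555 to 1484331 in nano-TiO2 libraries, and the part of this in the members' results was not tested. The deposited IP values were scaled by the authors with 1 size factor for each library and are called normalized reads here; reads themselves could be recovered from them. After that scaling the median log2 change of all 18566 genes tested was 0.13, and with every library set to equal totals it was 0.61. Member genes are long: all 10 had more windows than the median gene tested, from the 56.8th percentile (Cbll1, 160 windows) to the 96.8th (Fto, 521 windows). Results are also given with the trend of level on gene length removed from every library, where that ended or turned a call. In bulk tissue, fewer cells of a type and less RNA per cell cannot be told apart.

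In sham hearts the eraser Alkbh5 stood above all writers, and Fto overlapped with the highest of them. Levels are given per 1000 nucleotides of windows, to set genes of unlike length on a common scale. The scale counts windows without a read in any library, from 7 of 251 in Zc3h13 to 163 of 296 in Mettl14. The place of a gene with many such windows, Mettl14 above all, thus depends on this choice. Alkbh5 had the highest level at 273 ± 4.76 normalized reads (SD, n = 3) and Fto followed at 114 ± 9.72. Wtap, the adaptor that recruits the heterodimer, was the highest writer at 108 ± 24.1. Rbm15b (70.2 ± 23.2), Zc3h13 (59.4 ± 7.28) and Mettl3 (51.0 ± 7.59) came next, then Cbll1 (36.3 ± 3.40), Virma (25.8 ± 3.73), Rbm15 (22.8 ± 2.90) and last Mettl14 at 13.0 ± 0.881. The sham libraries of each neighbouring pair from Fto to Mettl3 overlapped, as did those of Virma and Rbm15, so the order within these pairs is not set by the data. In nano-TiO2 hearts Alkbh5 was again first at 386 ± 47.4, Fto (137 ± 33.5) and Zc3h13 (130 ± 18.4) overlapped, Mettl3 (58.7 ± 7.09) was close to Cbll1 (65.6 ± 6.01) and Virma (60.9 ± 6.57), and Mettl14 was again last at 36.0 ± 1.78. Summed over the members, normalized reads were 5351, 5762 and 5317 in sham against 6954, 8747 and 7460 in nano-TiO2 hearts. Per 1000000 reads, the scale of equal totals on which the median of all genes was higher in nano-TiO2 by 0.61 (log2), the sum was 193, 167 and 178 in sham against 308, 440 and 328 in nano-TiO2 hearts. The groups did not overlap on either scale. Erasers made up 57.0% ± 1.96 of the members' reads in sham against 52.8% ± 3.52 in nano-TiO2 libraries, and in this share the groups overlapped.

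**Figure D1:**
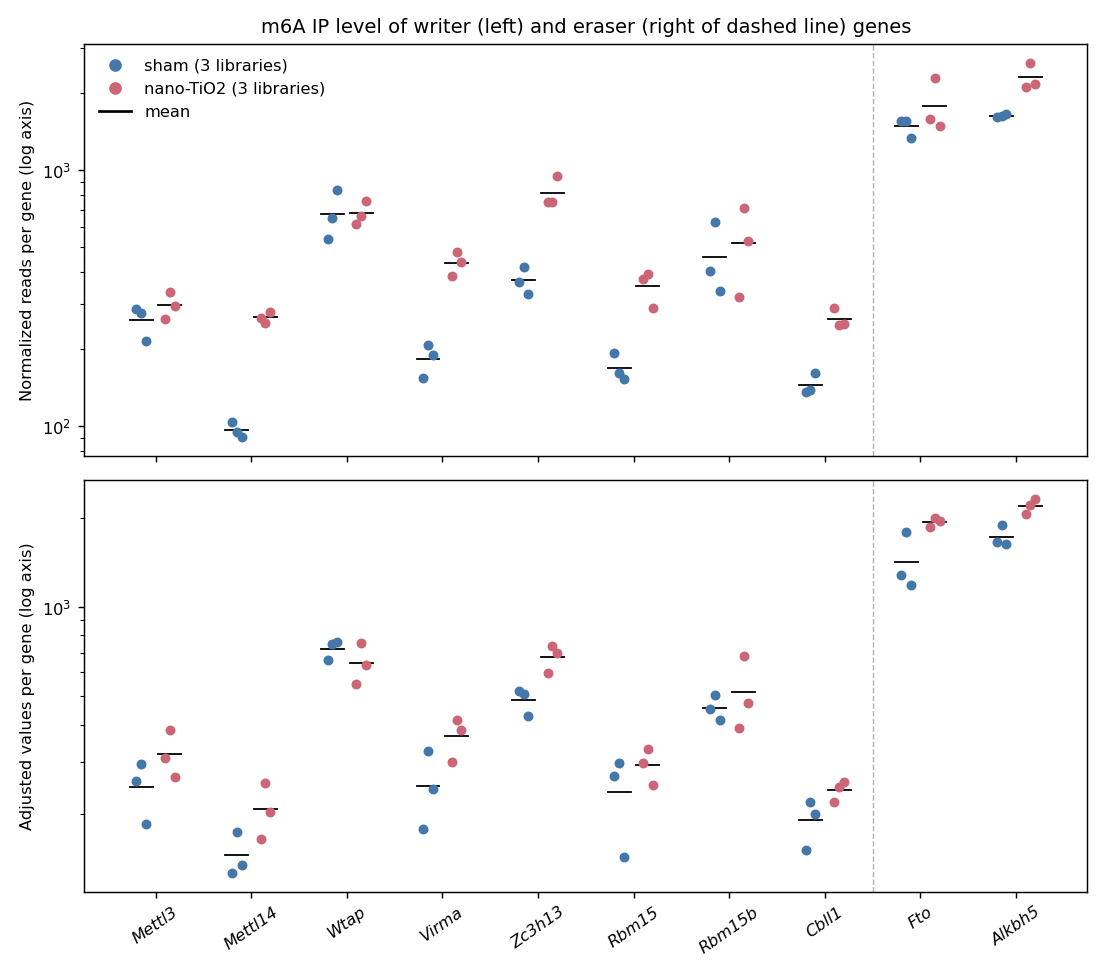
Normalized reads per gene (upper panel) and adjusted values per gene (lower panel), both on a log axis, for 8 writers and, right of the dashed line, 2 erasers. Points are libraries (3 sham, 3 nano-TiO2) and bars are group means; in the upper panel the groups of Mettl14, Virma, Zc3h13, Rbm15, Cbll1 and Alkbh5 do not overlap, and in the lower panel only those of Zc3h13, Fto and Alkbh5 do not.

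Of the catalytic pair, Mettl14 rose 2.76-fold in IP level in nano-TiO2 against sham hearts and Mettl3 did not pass the test. Mettl14 (ENSMUSG00000028114), the RNA-binding partner, had 103, 95.3 and 90.6 normalized reads in sham against 264, 254 and 280 in nano-TiO2 hearts. The nano-TiO2 libraries were all far above the sham ones, and the spread within each group was small (96.4 ± 6.52 and 266 ± 13.2, SD, n = 3). These rest on 67 to 115 reads per sham library and 237 to 348 per nano-TiO2 library. The log2 change was 1.46 ± 0.17 (SE; adjusted p = 0.00071, limma, Benjamini-Hochberg over all genes tested), which put Mettl14 at the 94.6th percentile of all changes. Mettl3 (ENSMUSG00000022160), the catalytic subunit, had 286, 276 and 215 normalized reads in sham against 263, 335 and 296 in nano-TiO2 libraries. Its groups overlapped, and the log2 change of 0.21 ± 0.18 did not pass (adjusted p = 0.41, limma). Reads of Mettl14 per read of Mettl3 were 0.362, 0.345 and 0.421 in sham against 1.00, 0.758 and 0.948 in nano-TiO2 hearts. Every nano-TiO2 library thus had a higher ratio than every sham library; the pair was set side by side after its values were seen and the ratio was not tested.

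Among the 6 partner proteins of the writer complex, 4 rose in IP level (Virma, Zc3h13, Rbm15 and Cbll1), against 24.0% of all genes tested, and Wtap and Rbm15b did not pass the test. With the length trend removed 2 of the 4 were called, Virma and Zc3h13, against 10.6% of all genes that were called higher. Virma (ENSMUSG00000040720), the large scaffold that steers the heterodimer to sites towards the 3′ end of messenger RNAs, had 155, 207 and 189 normalized reads in sham against 385, 478 and 438 in nano-TiO2 hearts. The lowest nano-TiO2 library lay well above the highest sham library, and the log2 change was 1.24 ± 0.18 (adjusted p = 0.0015, limma). Zc3h13 (ENSMUSG00000022000), a zinc finger protein that holds the complex in the nucleus, had 367, 421 and 330 in sham against 750, 750 and 950 in nano-TiO2 libraries. Nano-TiO2 replicate 3 was the highest, and the groups were apart without it; the change was 1.13 ± 0.17 (adjusted p = 0.0017, limma).

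Rbm15 (ENSMUSG00000048109) binds uridine-rich stretches next to methylation sites and, with its paralog Rbm15b, acts on the long noncoding RNA Xist. It had 193, 161 and 153 normalized reads in sham against 377, 391 and 290 in nano-TiO2 libraries. The groups did not overlap, and the log2 change was 1.05 ± 0.19 (adjusted p = 0.0034, limma); with the length trend removed it was 0.43 and did not pass (adjusted p = 0.13). Cbll1 (ENSMUSG00000020659), an E3 ubiquitin ligase also called Hakai that stabilises the complex, had 136, 139 and 161 in sham against 290, 247 and 250 in nano-TiO2 libraries. All nano-TiO2 libraries were above all sham libraries, with a change of 0.85 ± 0.17 (adjusted p = 0.0054, limma). It did not pass with the length trend removed (0.58, adjusted p = 0.051) or after quantile normalization (0.48, adjusted p = 0.071).

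Wtap (ENSMUSG00000060475) had 541, 648 and 837 normalized reads in sham against 617, 660 and 758 in nano-TiO2 libraries. The sham libraries reached both lower and higher than the nano-TiO2 ones, the means were 675 ± 150 and 678 ± 72.1 (SD, n = 3), and the log2 change was 0.02 ± 0.19 (adjusted p = 0.93, limma). Rbm15b (ENSMUSG00000074102) had 405, 627 and 338 in sham against 319, 712 and 527 in nano-TiO2 libraries. Its groups overlapped widely, and the change of 0.16 ± 0.32 had the largest error among the members (adjusted p = 0.73, limma). With Wtap as the denominator, reads of Virma were 0.277 ± 0.0472 of those of Wtap in sham against 0.642 ± 0.0748 in nano-TiO2, and reads of Zc3h13 were 0.574 ± 0.156 and 1.20 ± 0.0605. Neither ratio overlapped between the groups; both pairs were picked after their values were seen, with no test.

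Of the erasers, Alkbh5 rose and Fto did not pass the test. Alkbh5 (ENSMUSG00000042650) removes m6A from RNA in the nucleus. It had 1609, 1628 and 1665 normalized reads in sham against 2108, 2630 and 2178 in nano-TiO2 libraries. The sham libraries were nearly level and all nano-TiO2 libraries lay above them, with a log2 change of 0.49 ± 0.14 (adjusted p = 0.022, limma). With the length trend removed the change was -0.0015 (adjusted p = 0.99), and it did not pass without sham replicate 1 (adjusted p = 0.069), sham replicate 2 (0.064) or nano-TiO2 replicate 3 (0.058).

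Fto (ENSMUSG00000055932), first known as the fat mass and obesity gene, also removes the related mark m6Am next to the RNA cap. It had 1556, 1561 and 1339 normalized reads in sham against 1580, 2289 and 1492 in nano-TiO2 libraries. Nano-TiO2 replicate 2 stood apart while replicate 3 lay within the sham range, and the log2 change of 0.24 ± 0.18 did not pass (adjusted p = 0.33, limma). With the length trend removed Fto was called lower, at -0.69 (adjusted p = 0.023). Alkbh5 and Fto reads stood in ratios that overlapped between the groups, 1.11 ± 0.118 in sham against 1.31 ± 0.156 in nano-TiO2 hearts.

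In all, 6 of the 10 members rose in IP level and 0 fell, against 24.0% of all genes tested that rose and 12.0% that fell. The groups did not overlap, with nano-TiO2 higher, in the same 6 members, against 30.9% of all genes. The median log2 change of the members was 0.67, or 0.54 above the median of all genes. That distance was 0.55 with equal totals, 0.61 after quantile normalization and 0.28 with the length trend removed. With equal totals 8 members were called higher, Mettl3 and Fto being added, against 43.1% of all genes. After quantile normalization 5 were, without Cbll1, against 16.6% of all genes. With the length trend removed 3 members were higher (Mettl14 at 0.84, Virma at 0.64 and Zc3h13 at 0.61, adjusted p of 0.012, 0.018 and 0.023), 1 was lower (Fto), and Rbm15, Cbll1 and Alkbh5 no longer passed; of all genes 10.6% were higher and 14.6% lower. Over all genes the share of calls that were higher was 66.7%, and it was 97.9% with equal totals, 52.3% after quantile normalization and 42.0% with the length trend removed. The part of gene length in the members' changes was not tested beyond these values.

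**Figure D2:**
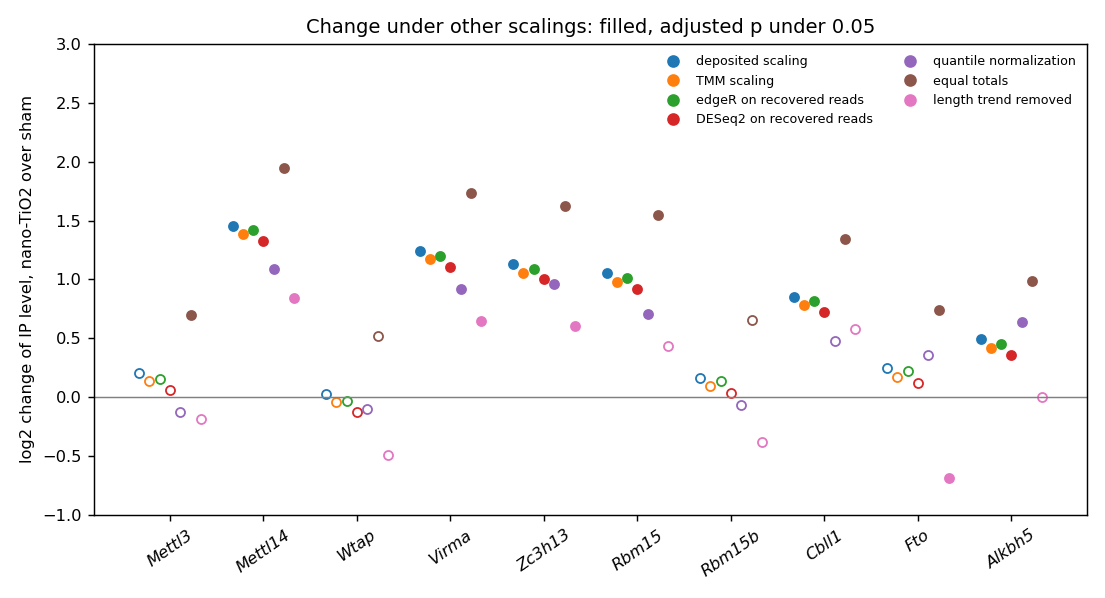
Log2 change of IP level, nano-TiO2 over sham, of the 10 members under 7 scalings or tools (colours); filled points had an adjusted p under 0.05 and open points did not. Mettl14, Virma and Zc3h13 are filled under all 7, and Alkbh5 goes from 0.49 with the deposited scaling to -0.0015 with the length trend removed.

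In the authors' adjusted values, whole numbers that follow from the normalized reads by 1 factor per gene and library, no member passed the test. Neither did any of the 19361 genes tested (0% called, limma; 3592 genes had an unadjusted p under 0.05). Of the 10 members 9 were higher in nano-TiO2 on average, with a median log2 change of 0.37 against 0.17 for all genes. Adjusted values of 5 members reached an unadjusted p under 0.05, all higher, against 16.5% of all genes that did so. For Zc3h13 they were 521, 507 and 427 in sham against 597, 738 and 697 in nano-TiO2 hearts. These groups did not overlap, with a log2 difference of 0.48 ± 0.14 (adjusted p = 0.18, limma). For Alkbh5 they were 1659, 1894 and 1630 in sham against 2063, 2213 and 2321 in nano-TiO2 libraries. Every nano-TiO2 library was above every sham library, and the difference was 0.35 ± 0.10 (adjusted p = 0.18, limma).

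Fto, which overlapped in IP level, did not overlap in adjusted values. It had 1278, 1795 and 1185 in sham against 1862, 1996 and 1943 in nano-TiO2 libraries, a difference of 0.47 ± 0.14 (adjusted p = 0.18, limma). Sham replicate 2 came close to the nano-TiO2 libraries while the other sham libraries lay far lower. The groups were apart, nano-TiO2 higher, for 3 of 10 members (Zc3h13, Fto and Alkbh5), against 19.4% of all genes. For Mettl14 the adjusted values were 126, 174 and 134 in sham against 164, 254 and 203 in nano-TiO2. The wide gap in its IP level was not there, since sham replicate 2 exceeded nano-TiO2 replicate 1, and the difference was 0.51 ± 0.22 (adjusted p = 0.25, limma). The log2 difference of Virma was 0.58 ± 0.22 (adjusted p = 0.22, limma), the largest value among the members.

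The other members had log2 differences in adjusted values of 0.39 (Mettl3), 0.36 (Rbm15), 0.35 (Cbll1), 0.14 (Rbm15b) and -0.17 (Wtap), with adjusted p of 0.33 to 0.71. The ratio of Mettl14 to Mettl3 in adjusted values was 0.602 ± 0.118 in sham against 0.653 ± 0.116 in nano-TiO2 hearts. On this scale the ratio overlapped between the groups. Without sham replicate 2 the adjusted values of 1878 genes were called, and of the members Fto (adjusted p = 0.028), Alkbh5 (0.031) and Virma (0.042) were, each higher in nano-TiO2, against 8.32% of all genes called higher.

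The factor between the tables, normalized over adjusted value, rose in nano-TiO2 hearts for 4 writers and did not pass for either eraser. What the authors made it from is not stated in the sources used here. Since normalized reads enter both the factor and the IP level, calls in the factor are not separate from those in IP level. It could be recovered precisely enough for 9 members, and it was higher in nano-TiO2 for 4 of these, against 15.3% of the 13489 genes tested that were higher. For Mettl14 the factor was 0.745, 0.549 and 0.677 in sham against 1.54, 1.04 and 1.45 in nano-TiO2 hearts. The nano-TiO2 values all exceeded the sham values, with a log2 change of 1.02 ± 0.20 (adjusted p = 0.014, limma). For Rbm15 it was 0.712, 0.524 and 0.930 in sham against 1.35, 1.24 and 1.25 in nano-TiO2, a change of 0.86 ± 0.22 (adjusted p = 0.025, limma).

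Virma (0.73 ± 0.16, adjusted p = 0.019, limma) and Zc3h13 (0.68 ± 0.16, adjusted p = 0.022, limma) also passed in the factor. The other 5 members tested lay between -0.23 (Fto) and 0.21 (Wtap), with adjusted p of 0.39 to 0.82. Cbll1 lay just outside the precision limit of 0.2, at a relative width of 0.201, and was not tested. Its factor was 0.904, 0.702 and 0.877 in sham against 1.41, 1.08 and 1.05 in nano-TiO2, with no overlap. Among the 9 tested the groups did not overlap, nano-TiO2 higher, in the 4 called ones, against 20.5% of genes tested. The factor calls leaned on single libraries, in the members as over all genes. None of the 4 passed when sham replicate 2 was left out, nor when replicate 1 or 3 of nano-TiO2 was (smallest adjusted p 0.050 to 0.053, limma). Only Mettl14 passed without sham replicate 1 (adjusted p = 0.035, limma). Of all genes tested, 31.6% were called in either direction with every library. That share was 10.5% without sham replicate 2 and 11.5% without sham replicate 1. It was 8.99% and 9.91% without nano-TiO2 replicates 1 and 3.

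**Figure D3:**
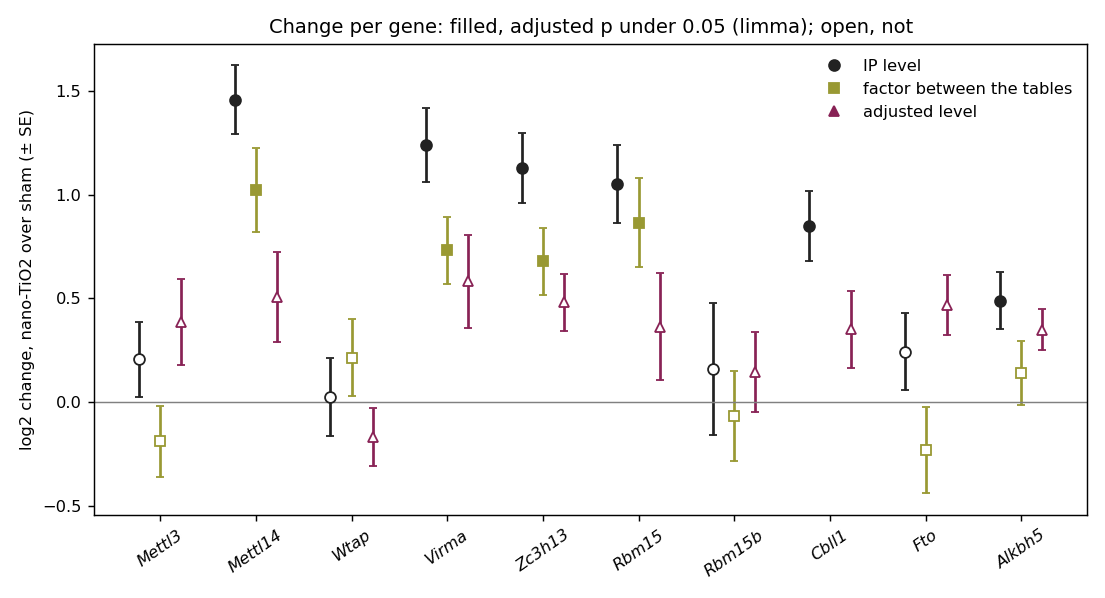
Log2 change, nano-TiO2 over sham (± SE, 3 libraries a group), of IP level (circles), of the factor between the tables (squares) and of the adjusted level (triangles) for each member; filled symbols had an adjusted p under 0.05 in limma. IP level and factor are filled together for Mettl14, Virma, Zc3h13 and Rbm15, no triangle is filled, and Cbll1 has no square because its factor was not tested.

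Each member had its own pattern of IP signal along its length, which was much alike in the 6 libraries. Windows were ordered from the 5′ to the 3′ end and cut into 10 equal segments, numbered from the 5′ end. The end of a gene was taken from the position of an over-long first window, which matched the RefSeq strand in 8 of 8 members that had one; Mettl14 and Virma were oriented by that window alone. Positions are nucleotides along the joined windows, not genome coordinates.

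Fto had the strongest 3′ weighting, with 71.0% of its signal in the last 2 segments, 15.5% in segment 1 and 218 of its 521 windows without a read in any library. Mettl14 was split likewise between its ends, with 23.6% in segment 1 and 58.0% in the last 2. Rbm15 had 36.6% in segment 9 alone. Wtap was highest in the middle, with 37.0% in segment 5. Rbm15b (26.1%) and Alkbh5 (23.9%) also peaked in segment 5, Cbll1 in segment 4 (20.7%), Virma in segment 9 (22.1%), Mettl3 in segment 10 (19.8%) and Zc3h13 in segment 1 (22.1%).

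A single window of Wtap, which starts at nucleotide 676 of its joined windows, was the highest of the gene in all 6 libraries. It held 82, 85 and 60 reads in sham against 52, 82 and 104 in nano-TiO2 libraries. In normalized reads that was 82.7 ± 9.76 and 69.9 ± 13.0 (SD, n = 3), so the groups overlapped. In no other member was the window with the highest mean also the top window of more than 2 libraries.

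**Figure D4:**
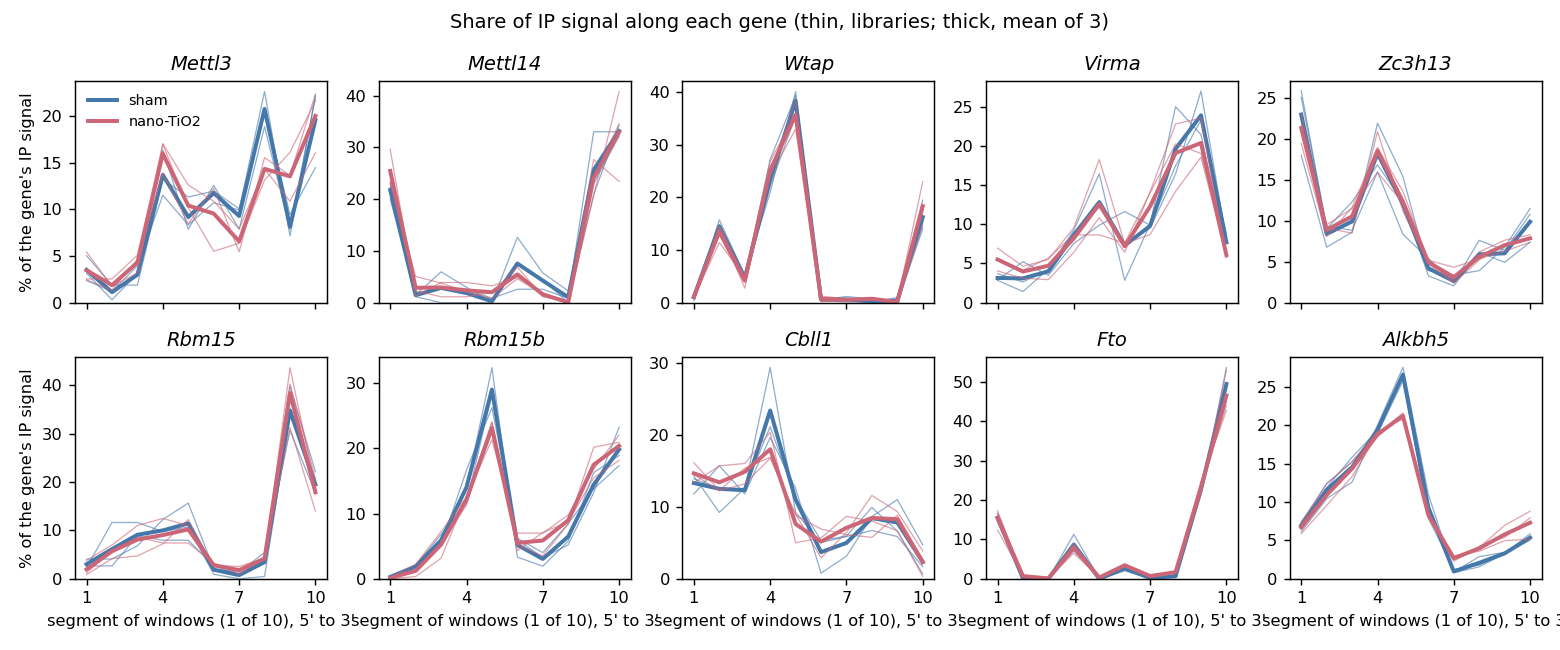
Share of each member's IP signal (% of the gene's normalized reads) in each of 10 segments of its windows from the 5′ to the 3′ end; thin lines are libraries and thick lines are means of 3 sham (blue) or 3 nano-TiO2 (red) libraries. The curves of the groups lie on each other for most segments, with Fto and Mettl14 weighted to the gene ends and Wtap to segment 5.

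Within genes, a stretch of Alkbh5 held a larger share of the gene's signal in nano-TiO2 hearts. This was the only one of 76 member segments tested that passed (those with a mean under 10 were not tested), against 0.568% of 88711 segments over all genes (limma diffSplice, which sets each segment against the rest of its gene). It is segment 7, nucleotides 3601 to 4200 and 24 windows, just past the point where the signal of the gene falls steeply. It held 14, 13 and 15 reads in sham against 43, 95 and 75 in nano-TiO2 hearts. Its share of the gene's signal was 0.783%, 0.875% and 1.22% in sham against 2.28%, 2.99% and 2.77% in nano-TiO2 libraries, with no overlap. Relative to the rest of the gene the log2 change was 1.27 ± 0.21 (adjusted p = 0.00043, limma).

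The neighbouring 3′ segments of Alkbh5 did not pass, with relative changes of 0.73 for segment 8 (adjusted p = 0.11) and 0.54 for segment 9 (adjusted p = 0.50). Segment 10 was at 0.13, while segments 1 to 6 were all negative, from -0.34 to -0.68, and none of these passed. Relative changes within a gene balance each other, so negative ones do not mean that reads fell. In normalized reads, segments 1 to 6 were all higher on average in nano-TiO2 than in sham hearts. Segment 1 had 155 against 113 and segment 5 had 489 against 434. In relative change, segment 7 alone was past the threshold. Segment 8 held 28, 43 and 22 reads in sham against 80, 114 and 110 in nano-TiO2 libraries. Segment 5, where the gene had most signal, had a relative change of -0.68 (adjusted p = 0.18), and its share was 26.6% ± 0.884 in sham against 21.2% ± 0.398 in nano-TiO2 hearts. The result depends on the length of the stretch: with 4 segments a gene in place of 10, 0 of 39 member segments passed, against 0.628% of all, and the last of the 4 in Alkbh5 had a relative change of 0.60 (adjusted p = 0.32, limma). Segments of a gene share its reads and are not independent.

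Segment 8 of Fto came closest among the others tested. It held 12, 5 and 9 reads in sham against 24, 49 and 30 in nano-TiO2 libraries, and its relative change was 1.34 ± 0.33 (adjusted p = 0.059, limma). These are 0.651% ± 0.281 of the gene's signal in sham against 1.70% ± 0.0763 in nano-TiO2 hearts. The stretch was thus a small part of Fto in both groups.

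**Figure D5:**
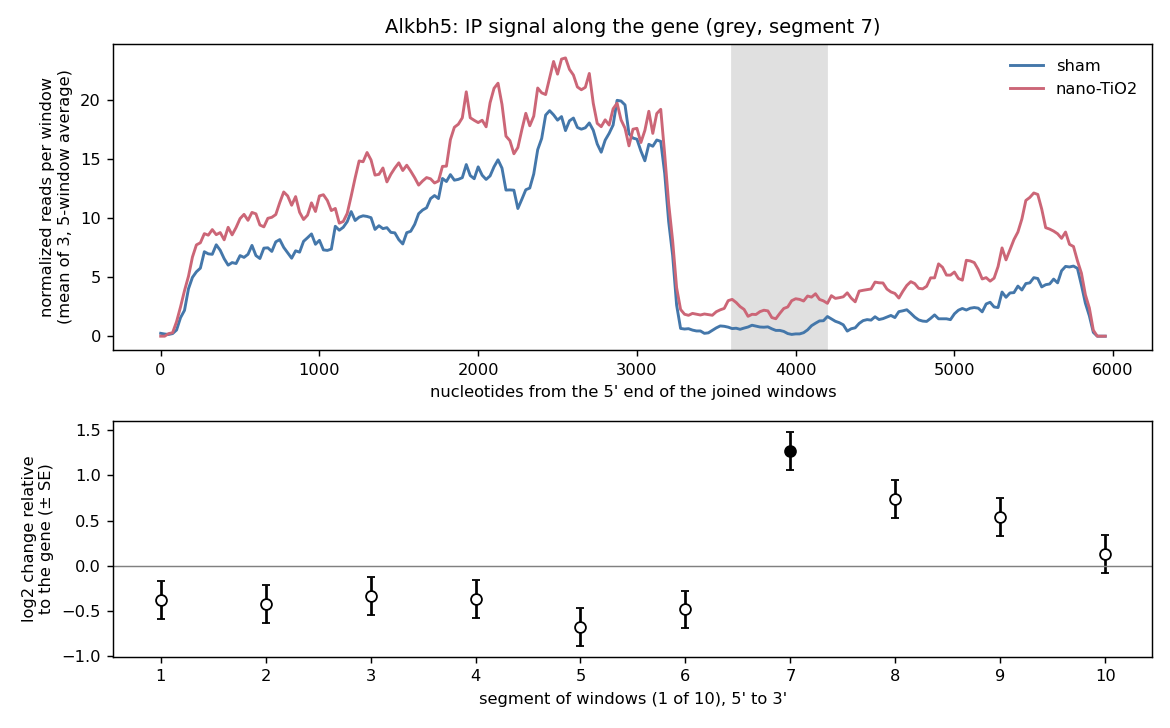
Upper panel: normalized reads per window along Alkbh5, as means of 3 libraries smoothed over 5 windows, for sham (blue) and nano-TiO2 (red), with segment 7 in grey. Lower panel: log2 change of each segment relative to the rest of the gene (± SE), where the filled point, segment 7 at 1.27, had an adjusted p under 0.05.

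No single window of the members passed at the depth needed for the main test. Of 169 member windows whose mean reached 10 normalized reads (83 of Alkbh5, 70 of Fto, 13 of Wtap and 3 of Rbm15), 0 passed, against 11.2% of all 250317 windows tested. That share is not one at like depth. With only windows of a mean of at least 50 tested, 39.1% of 57169 were called, and the members had 1 such window. In these 169, 11 had an unadjusted p under 0.05, and the smallest adjusted p was 0.082 (limma). With windows down to a mean of 1 included, 8 of 1215 member windows were called (0.658%), all higher in nano-TiO2, against 1.36% of all windows tested that were called higher. The members' share was thus below that of all windows. Of the 8, 4 had a sham mean under 1 normalized read and passed the filter on low values only through the nano-TiO2 libraries, so the count is a description.

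Reads of 5 members were spread over more windows in every nano-TiO2 library than in any sham library, a measure chosen after the values had been seen and described with no test. With each gene thinned to its shallowest library, Alkbh5 (1232 reads) would have a read in 186 ± 2.79 of its 239 windows in sham and in 209 ± 1.74 in nano-TiO2 hearts. Fto (991 reads) would have one in 149 ± 5.59 and 178 ± 2.64 of 521 windows. For Mettl3 (159 reads) the numbers were 69.5 ± 1.36 and 76.5 ± 2.08 of 203 windows. Virma and Cbll1 did not overlap either, which made 5 of 10 members with nano-TiO2 higher, against 28.4% of the 12394 genes with at least 50 reads in every library. Mettl14, the member that rose most in IP level, was level by this measure, at 47.0 ± 0.324 and 47.2 ± 0.542 windows.

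Some member reads cannot be given to 1 gene with certainty. Mettl3 overlaps Tox4, Rbm15 overlaps Slc16a4 and Rbm15b overlaps Dcaf1 in RefSeq, all protein coding, and Zc3h13, Cbll1 and Fto overlap noncoding or pseudogene entries. The strand setting of the counting is not stated in the sources used here, so reads of such neighbours cannot be told apart. Wtap, Alkbh5, Mettl14 and Virma had no overlapping entry.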

How the data were processed

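Per the labels' protocols, total RNA of pooled fetal hearts was fragmented, bound to an anti-m6A antibody and sequenced. The labels also describe input libraries, which were not used here. The build GRCm39 and the tools DESeq2 1.34.0, HISAT2 2.2.1 and Salmon 1.5.2 are named, with no role, per the submitters' processing notes; how windows were counted is not stated there. The authors' deposited normalized table holds a signal per window: all values were whole multiples of a step fixed for each library (tolerance 0.0001, 100% of values), so whole reads were recovered. Scores in the authors' deposited adjusted table are whole numbers that follow from the signal by 1 factor per gene and library (0 exceptions in 162014 pairs). The table called filtered had the same content as the normalized table.

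Sample titles gave the groups and the replicate numbers. Windows were summed per gene and tested on log2(value + 1) of the deposited values with limma 3.58.1 (trend, two-sided) in R 4.3.3, for features with a mean of at least 10, with no covariates and Benjamini-Hochberg adjustment over all features at 0.05. Fold changes on that scale understate low genes. Factors were tested where known to a relative width of 0.2, and 10 segments a gene with diffSplice in genes of at least 20 windows. edgeR 4.0.16 and DESeq2 1.42.0 on recovered reads, other scalings, filters, pseudocounts and single libraries left out were alternatives. Reads include PCR copies, which are not independent molecules. Other tools were Python 3.11.15, NumPy 2.4.6, pandas 2.3.3, SciPy 1.17.1 and matplotlib 3.10.9.

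All 10 members are named, which was the rule for named genes. The members and lists were chosen with earlier results of these data known, so no p is given over the members. The RefSeq gene table pairs 0 Ensembl IDs with symbols, so other pathway genes, heart markers and genes most like the members were not analysed here. Coordinates of that table are not printed, as its build differs from that of the files.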

Additional observations from a re-analysis of the deposited data

How the results depend on the processing

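Of 413 alternatives computed for single members, 362 kept direction and side of the threshold. A call was lost in 25 and gained in 6, and the sign turned in 22, of which 1 also lost and 1 also gained a call; the cause was not tested. The rise of Mettl14, Virma and Zc3h13 in IP level passed under every alternative run. Signs turned in IP level under quantile normalization (Mettl3 -0.13, Wtap -0.10, Rbm15b -0.065), with the length trend removed (Mettl3 -0.19, Wtap -0.49, Rbm15b -0.38, Fto -0.69, Alkbh5 -0.0015), and for Wtap with TMM scaling (-0.046), edgeR (-0.036) and DESeq2 (-0.13). Leaving out 1 library gave -0.12 to 0.19 for Wtap and -0.10 to 0.47 for Rbm15b. In adjusted values Rbm15b turned with TMM scaling (-0.019), quantile normalization (-0.029) and the length trend removed (-0.12), and spanned -0.078 to 0.32 with 1 library left out. Its factor change was 0.048 with each library centred on its median and -0.16 to 0.11 with 1 library left out. Segment 7 of Alkbh5 passed in all 8 alternatives that held it (1.07 to 1.46, adjusted p 0.0019 to 0.018); a mean of at least 50 dropped it.

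Over all genes, leaving out 1 library gave 4771 to 6036 calls in IP level against 6676, 0 to 1878 in adjusted values against 0, 1212 to 4248 in the factor against 4265, 12114 to 21647 windows against 28052 and 171 to 369 segments against 504. Segments called were 136 with a mean of at least 50, and 302 with 4 segments a gene. The share of factor calls that were higher was 48.4%, and 69.3% after centring. IP calls numbered 6932 with edgeR and 7316 with DESeq2. Samples of 1 replicate number correlated in their deviations at -0.37, 0.18 and 0.02, so the numbers were not taken as pairs. With the replicate block 6415 genes were called in IP level and 0 in adjusted values, 1662 in the factor, 31744 windows and 306 segments; the same 6 members passed in IP level and only Mettl14 in the factor. Depth limits single windows: 6 members had no window with a mean of 10.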
